A study of Homo sapiens with 16 samples.

Results

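PD98059 was tested on its own in HepG2 cells kept in complete medium. The comparison takes the 4 arrays titled as PD98059 in DMEM and sets them against the 4 titled as DMSO in DMEM, which are 8 of the 16 arrays of the series, and it covers all 22464 genes that carry 1 symbol on the array. HepG2 is an established human hepatoma line, so every value comes from 1 tumour line. In the PD98059 group the cells received 2.5 uM PD98059 dissolved in DMSO for 1 h and stayed in it for a further 8 h in DMEM with non-essential amino acids, glutamine and 10% fetal bovine serum. In the DMSO group the cells received an equal volume of the solvent for the same times. The other 8 arrays are the same pair of treatments in medium without histidine, an essential amino acid, for 8 h, and they appear here only where the effect of the inhibitor is set against its effect in that medium. Each group holds 4 separate incubations. Some sample labels print the dose in M in place of uM, and the unit of the labelling protocol is used here.

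MEK is the kinase that phosphorylates and activates ERK, the last kinase of the cascade that runs from growth factor receptors through RAS and RAF. ERK in turn switches on a first wave of transcription factors and also a set of inhibitors that act back on the cascade, such as the DUSP phosphatases and the Sprouty and SPRED proteins. PD98059 is a flavone that binds MEK outside its ATP site and keeps it from being activated. In hepatocytes the cascade is known to act on proliferation and on the balance between growth and differentiated liver functions.

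The arrays of both groups were closely alike in overall signal. Over all 70459 rows, with or without a gene symbol, pairs of arrays of the same group correlated at r between 0.9973 and 0.9983. Pairs across the PD98059 and DMSO groups correlated at r between 0.9967 and 0.9976. Over the 22464 genes, the first principal component of the 8 arrays held 46.5% of the variance. It put the 4 PD98059 arrays on 1 side and the 4 DMSO arrays on the other. Of 10 hepatocyte and hepatoma markers, 8 were measured, all above the median value of the table, with group means between 8.39 and 13.62 on the log2 scale. Their mean over the list lay between 11.14 and 11.17 on the PD98059 arrays and between 11.06 and 11.10 on the DMSO arrays. For other cell types the list means are given, although an array value has no true zero and levels of different genes on an array cannot be set against each other. The mean over 9 leukocyte markers was 6.92 to 6.97 with PD98059 and 6.93 to 6.96 with DMSO. The mean over 8 endothelial markers was 5.90 to 5.96 and 5.88 to 5.92, and over 8 fibroblast and stellate markers 6.49 to 6.55 and 6.49 to 6.52. Single genes spread widely around these means. Group means ran from 3.91 to 13.33 among the leukocyte markers, with 5 genes above the median value. They ran from 3.66 to 8.15 among endothelial markers (4 above) and from 3.25 to 10.18 among fibroblast and stellate markers (5 above). Of these genes, LYZ and PDGFRB were called lower and ACTA2 higher, and their part in the results below was not tested. Olfactory receptor genes gave 5 calls among 364 (1.37%, against 14.3% of all genes). Only 23 of the 364 lay above the median value, against 69.5% of all genes, so few calls could be made among them.

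In complete medium, PD98059 changed 3218 genes, which is 14.3% of those tested, at a Benjamini-Hochberg adjusted p under 0.05 in limma's moderated test. Of these, 1705 were higher with the inhibitor (7.59% of all genes) and 1513 were lower (6.74%). Most changes were small: the median change was 0.16 on the log2 scale among genes that were higher and -0.18 among genes that were lower, against 0.01 over all genes. At 1.5-fold or more the balance turned, with 17 genes higher and 45 lower (62 in all, 0.276% of the genes tested), and at 2-fold or more 1 gene was higher and 11 were lower. For 4904 genes (21.8%) all PD98059 arrays lay on the same side of all DMSO arrays. Since each array holds RNA of a whole culture, fewer cells of a kind and less RNA per cell cannot be told apart.

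**Figure D1:**
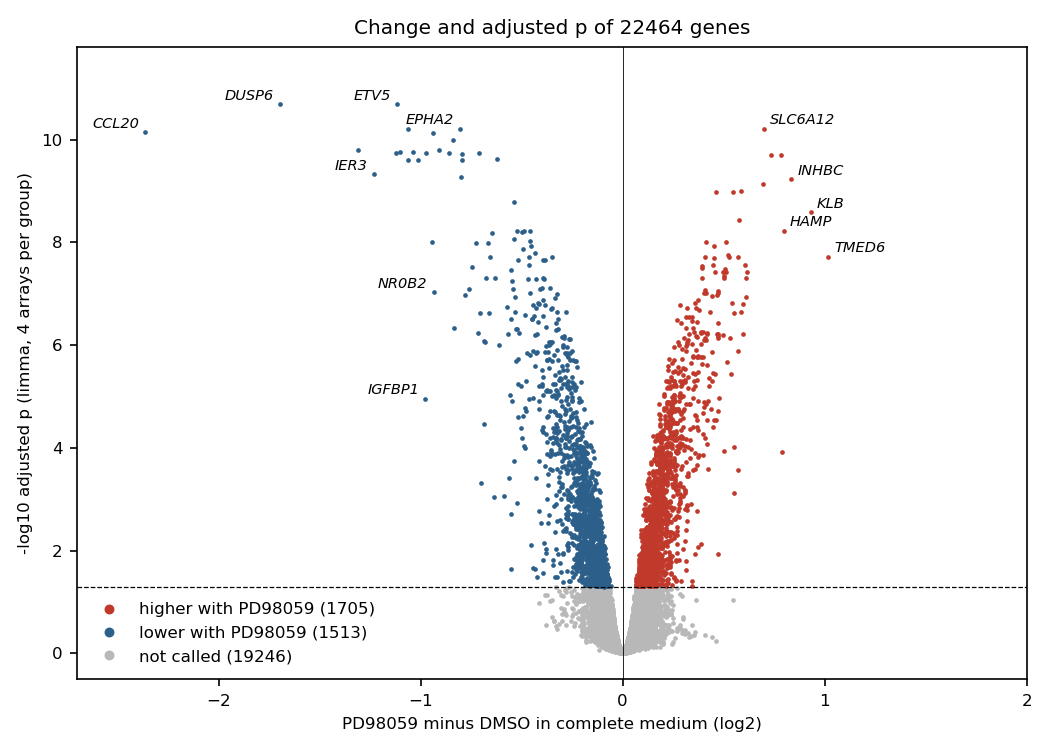
Each point is a gene: the horizontal axis gives its PD98059 minus DMSO difference in complete medium (log2) and the vertical axis the -log10 of its adjusted p from limma, with the dashed line at 0.05. The 1513 genes called lower reach -2.36 (CCL20) and the 1705 called higher reach 1.02 (TMED6), so the long arm of the plot is on the lower side.

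The genes known as the direct output of the cascade fell as a group. Of 30 measured genes of MEK and ERK output and feedback, 21 were lower, 0 higher and 9 not called, where 6.74% of all genes were lower. The median was -0.24 on the log2 scale against 0.01 over all genes. DUSP6, the cytoplasmic phosphatase that dephosphorylates ERK, had log2 values of 6.99, 6.92, 6.72 and 6.83 with PD98059 and 8.62, 8.47, 8.57 and 8.58 with DMSO. Every PD98059 array was far below every DMSO array. The difference was -1.70 ± 0.053 (SE), a 3.24-fold lower level, with an adjusted p of 2.03e-11. DUSP5, a nuclear ERK phosphatase, fell by less (-0.41 ± 0.044, adjusted p 6.23e-06 in limma). DUSP4, another nuclear phosphatase, was not called (-0.11 ± 0.042, adjusted p 0.107), although its arrays did not overlap, and its adjusted p went to 0.0204 under another quantile normalization.

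The Sprouty and SPRED proteins, which hold back signalling between the receptor and RAF, fell in 5 of 7 measured members, where 6.74% of all genes were lower, and SPRY3 and SPRED3 were not called. SPRY4 had 8.36, 8.40, 8.48 and 8.31 with PD98059 and 9.38, 9.31, 9.42 and 9.34 with DMSO (log2), a 1.97-fold lower level (adjusted p 1.85e-10). SPRY1 had 8.56, 8.57, 8.56 and 8.54 with PD98059 and 9.45, 9.32, 9.44 and 9.45 with DMSO, 1.81-fold lower (adjusted p 1.85e-10). In neither gene did an array of one group come near the other group. The log2 differences of SPRED1, SPRED2 and SPRY2 were -0.73 ± 0.043, -0.50 ± 0.028 and -0.43 ± 0.040 (SE), with adjusted p in limma between 6.37e-09 and 1.46e-06.

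ETV4 and ETV5, ETS-family transcription factors induced by ERK, were among the largest decreases. ETV5 had 8.41, 8.35, 8.23 and 8.36 with PD98059 and 9.48, 9.43, 9.47 and 9.42 with DMSO (log2), 2.17-fold lower (adjusted p 2.03e-11). ETV4 had 9.56, 9.68, 9.59 and 9.61 with PD98059 and 10.56, 10.51, 10.59 and 10.53 with DMSO, 1.92-fold lower (adjusted p 7.38e-11). All 8 values of each gene separated by treatment. EPHA2, an ephrin receptor tyrosine kinase, followed with -0.80 ± 0.029, and FOSL1, the FRA1 subunit of AP-1, with -0.43 ± 0.033. CCND1, which encodes cyclin D1 and is a classical ERK-responsive gene in other cells, had 11.45, 11.43, 11.42 and 11.43 with PD98059 and 11.41, 11.43, 11.45 and 11.41 with DMSO. Its arrays overlapped, its difference of 0.01 ± 0.026 (adjusted p 0.905) took the other sign when arrays were shifted to the same median, and it was not called.

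Immediate-early genes, the first genes transcribed after a growth factor stimulus without new protein synthesis, also moved downward. Of 31 measured, 15 were lower and 0 higher, with a median of -0.10, where 6.74% of all genes were lower. FOSL1, IER3 and MYC belong to both this list and the output list. EGR1, a zinc finger transcription factor, had 6.82, 6.75, 6.81 and 6.77 with PD98059 and 7.95, 7.78, 8.01 and 7.92 with DMSO (log2). The PD98059 arrays lay in a narrow band well below the lowest DMSO array, and EGR1 was 2.18-fold lower (adjusted p 1.85e-10). IER3, a short-lived regulator of cell survival, had 9.82, 9.98, 9.95 and 9.93 with PD98059 and 11.16, 11.04, 11.19 and 11.21 with DMSO, 2.35-fold lower without overlap (adjusted p 4.7e-10).

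The upstream 250 bases of EGR1 are shown because the gene holds the serum response elements through which ERK-activated ternary complex factors act with SRF. The sequence is RefSeq's for chr5:138465229-138465478 (plus strand, GRCh38.p14), and the capitals mark 2 CArG boxes, the core of the SRF site, at -105 to -96 and -83 to -74 from the start of the gene.
EGR1 promoter: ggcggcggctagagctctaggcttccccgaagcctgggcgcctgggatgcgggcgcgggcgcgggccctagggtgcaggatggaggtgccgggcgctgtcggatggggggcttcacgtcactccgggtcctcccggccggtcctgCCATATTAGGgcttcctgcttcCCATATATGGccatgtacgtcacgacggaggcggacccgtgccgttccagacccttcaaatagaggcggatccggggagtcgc
A CArG box was found in 1.15% of the 15247 promoters of the tested genes that RefSeq's table holds, searched on both strands over the same length, and in 2 of 22 promoters of the immediate-early genes.

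TRIB1, a pseudokinase that binds MEK and steers C/EBP proteins to degradation, had 8.84, 8.86, 8.83 and 8.82 with PD98059 and 9.40, 9.35, 9.41 and 9.36 with DMSO (log2), 1.45-fold lower (adjusted p 1.62e-09). MYC, the growth-promoting transcription factor, had 10.64, 10.73, 10.65 and 10.69 with PD98059 and 11.02, 11.01, 11.02 and 10.98 with DMSO, 1.26-fold lower (adjusted p 5.14e-07). In both genes the 4 PD98059 arrays lay below the 4 DMSO arrays. JUN, the partner of FOS in AP-1, fell by 0.21 ± 0.038 on the log2 scale, and the Kruppel-like factor KLF6 fell by 0.25 ± 0.026. FOS itself was near the median of the table, with 6.49, 6.58, 6.55 and 6.56 with PD98059 and 6.64, 6.59, 6.62 and 6.61 with DMSO. Its groups barely missed overlapping and it was not called (-0.07 ± 0.042, adjusted p 0.335).

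**Figure D2:**
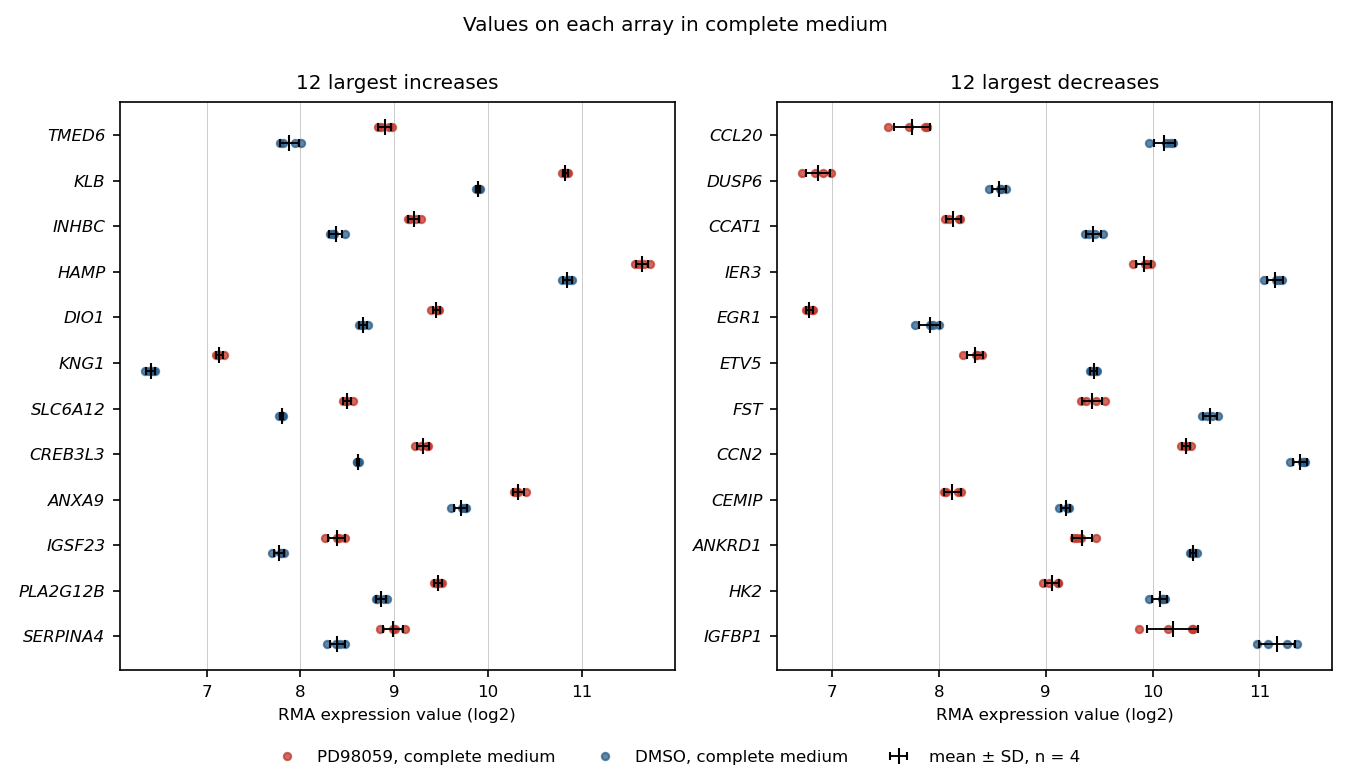
Log2 RMA values on each array of the 12 named genes with the largest increases (left) and the 12 with the largest decreases (right) in complete medium, PD98059 in red above DMSO in blue, with bars for the mean ± SD of 4 arrays. For none of the 24 genes do the arrays overlap, which was a condition of their choice, and IGFBP1 has the widest spread within a group.

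The kinases and adaptors of the cascade itself changed by small amounts and in both directions. Of 20 measured RAS, RAF, MEK and ERK core genes, 4 were higher, 4 lower and 12 not called, with a median of 0.02. The share called was 40.0%, against 14.3% of all genes. MAP2K1, which encodes MEK1, a target of the inhibitor, had 9.44, 9.41, 9.35 and 9.32 with PD98059 and 9.64, 9.54, 9.59 and 9.56 with DMSO (log2). The groups lay close together without overlapping, and MAP2K1 was 1.15-fold lower (adjusted p 0.000261). MAP2K2, which encodes MEK2, gave a difference of -0.0004 ± 0.038 with overlapping arrays (adjusted p 0.997). MAPK3, which encodes ERK1, differed by 0.08 ± 0.028 (adjusted p 0.0805) and passed the threshold without PD98059 replicate 1 (adjusted p 0.0107). SHC1, the adaptor between receptors and RAS, fell by 0.17 ± 0.024.

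Receptors and ligands of the EGF, FGF, HGF and IGF families split evenly, with 5 higher, 5 lower and 16 not called among 26. The share called was 38.5%, against 14.3% of all genes. FGF receptors went different ways. FGFR1 had 9.31, 9.34, 9.32 and 9.34 with PD98059 and 9.56, 9.54, 9.60 and 9.55 with DMSO (log2), 1.18-fold lower (adjusted p 7.37e-06). FGFR3 had 10.20, 10.25, 10.24 and 10.23 with PD98059 and 9.98, 9.98, 10.06 and 10.04 with DMSO, 1.16-fold higher (adjusted p 3.87e-05). Neither gene's groups overlapped, and both changes were small. FGFR4, the hepatocyte receptor of FGF19, was called higher by 0.10 ± 0.030 (adjusted p 0.0348), a call that was lost without DMSO replicate 1, 2 or 4 or PD98059 replicate 2, 3 or 4 (adjusted p 0.0653 to 0.115) and with another quantile normalization (0.0534). IRS1, the adaptor of the insulin and IGF1 receptors, rose by 0.34 ± 0.048. The count of receptors and ligands called higher was 3 without DMSO replicate 1, 2 or 4 or PD98059 replicate 2 or 4.

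CCL20, a chemokine that attracts CCR6-bearing lymphocytes and dendritic cells, was the gene with the largest change in either direction. It had 7.88, 7.87, 7.52 and 7.72 with PD98059 and 10.19, 9.97, 10.12 and 10.16 with DMSO (log2). Even the highest PD98059 array was far below the lowest DMSO array, and CCL20 was 5.15-fold lower (-2.36 ± 0.088, adjusted p 7.15e-11). In the cytokine and NF-kB list 9 genes were lower, 2 higher and 15 not called of 26, with a median of -0.01. The share called was 42.3%, against 14.3% of all genes, and 6.74% of all genes were lower. ICAM1, the adhesion molecule that holds leukocytes, had 9.79, 9.88, 9.75 and 9.75 with PD98059 and 10.58, 10.46, 10.58 and 10.54 with DMSO, 1.68-fold lower (adjusted p 2.98e-08). CXCL8, the neutrophil chemokine interleukin 8, had 6.06, 5.98, 5.93 and 5.95 with PD98059 and 6.67, 6.59, 6.70 and 6.69 with DMSO, 1.60-fold lower (adjusted p 8.87e-07). For both genes the groups were well apart. NFKBIA, which encodes the NF-kB inhibitor and is itself an NF-kB target, went the other way and rose by 0.16 ± 0.033 (adjusted p 0.00301).

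The promoters of the 2 chemokines are shown because NF-kB and the JUN and FOS dimer AP-1 are the factors most often linked to these genes. That of CCL20 is chr2:227813592-227813841 (plus strand) and its capitals mark an NF-kB motif at -79 to -70, and that of CXCL8 is chr4:73740319-73740568 (plus strand) with the AP-1 motif TGANTCA in capitals at -137 to -131, both from RefSeq (GRCh38.p14).
CCL20 promoter: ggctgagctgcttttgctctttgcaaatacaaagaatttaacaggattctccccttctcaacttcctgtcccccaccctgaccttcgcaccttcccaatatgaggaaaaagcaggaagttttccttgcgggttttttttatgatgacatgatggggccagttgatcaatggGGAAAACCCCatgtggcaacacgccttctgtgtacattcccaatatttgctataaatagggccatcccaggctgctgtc
CXCL8 promoter: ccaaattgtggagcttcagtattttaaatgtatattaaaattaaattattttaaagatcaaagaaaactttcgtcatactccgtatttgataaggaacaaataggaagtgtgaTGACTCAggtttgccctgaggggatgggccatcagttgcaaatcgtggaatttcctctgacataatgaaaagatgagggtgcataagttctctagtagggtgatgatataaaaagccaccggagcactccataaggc
The NF-kB motif was found in 11 of 19 promoters of the cytokine list (57.9%) and in 0.958% of all 15247. That list holds NF-kB targets by choice, so its share does not bear on PD98059. The AP-1 motif was found in 5.37% of all promoters. Among promoters of genes called lower, the NF-kB motif was in 1.30% and the AP-1 motif in 4.60%.

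Among noncoding RNAs, CCAT1 was one of the 12 lowest genes of the naming rule, while MIR21 lies outside that rule and was picked after its values were seen. MIR21, the gene of a microRNA abundant in many tumours, had 6.21, 6.41, 6.42 and 6.28 with PD98059 and 7.14, 6.85, 7.01 and 7.07 with DMSO (log2). The groups did not overlap, and the probe set was 1.61-fold lower (adjusted p 3.45e-05). The array measures transcript of the gene and not the mature microRNA, whose sequence (RefSeq, chr17:59841273-59841294, plus strand, GRCh38.p14) is given with its seed, bases 2 to 8, in capitals.
hsa-miR-21-5p: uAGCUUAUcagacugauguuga
Over 1056 microRNA genes, 15 were lower and 7 higher, which is 2.08% against 14.3% of all genes. Only 410 of the 1056 lay above the median value, against 69.5% of all genes. Of all called genes 94.4% lay above it, so the lower share cannot be told apart from the lower signal. CCAT1, a long noncoding RNA known from colon cancer, had 8.19, 8.09, 8.05 and 8.20 with PD98059 and 9.46, 9.37, 9.54 and 9.41 with DMSO, 2.48-fold lower without overlap (adjusted p 1.57e-10).

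Genes of cell shape and matrix contact were among the larger decreases. Of 18 measured YAP and TEAD targets, 9 were lower, 2 higher and 7 not called, with a median of -0.10. The share called was 61.1%, against 14.3% of all genes. CCN2, the matricellular growth factor once called CTGF, had 10.32, 10.36, 10.27 and 10.31 with PD98059 and 11.42, 11.28, 11.40 and 11.42 with DMSO (log2), 2.09-fold lower (adjusted p 2.5e-10). ANKRD1, a nuclear ankyrin repeat protein, had 9.47, 9.33, 9.30 and 9.26 with PD98059 and 10.42, 10.39, 10.35 and 10.36 with DMSO, 2.05-fold lower (adjusted p 1.78e-10). For both genes every PD98059 array was well below every DMSO array. AJUBA, a LIM protein that binds the LATS kinases, and DLC1, a GTPase-activating protein, rose by 0.34 ± 0.033 and 0.23 ± 0.028, against most called members of the list.

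The promoter of CCN2 (chr6:131951373-131951622, minus strand, RefSeq, GRCh38.p14) is shown for its 3 copies of the TEAD motif GGAATG, in capitals, at -169 to -164, -104 to -99 and -95 to -90.
CCN2 promoter: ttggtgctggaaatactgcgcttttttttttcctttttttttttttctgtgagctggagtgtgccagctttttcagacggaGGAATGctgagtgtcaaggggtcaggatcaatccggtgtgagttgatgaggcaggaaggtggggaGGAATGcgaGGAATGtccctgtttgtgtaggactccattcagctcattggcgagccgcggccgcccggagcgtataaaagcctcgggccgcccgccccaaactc
The same letters on either strand were found in 4 of 12 promoters of the YAP and TEAD list (33.3%) and in 10.2% of all 15247 promoters. The list was chosen as TEAD targets, so its share does not bear on PD98059. In the promoters of all genes called lower the share was 9.04%.

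Among 24 integrins, laminins and extracellular proteases, 9 were lower, 2 higher and 13 not called, with a median of 0.00. Of this list 45.8% was called, against 14.3% of all genes. ITGA2, the collagen-binding integrin subunit alpha 2, had 9.73, 9.58, 9.53 and 9.59 with PD98059 and 10.59, 10.51, 10.55 and 10.56 with DMSO (log2), 1.92-fold lower (adjusted p 9.82e-09). CEMIP, which degrades hyaluronan, had 8.21, 8.18, 8.05 and 8.07 with PD98059 and 9.21, 9.13, 9.20 and 9.22 with DMSO, 2.09-fold lower (adjusted p 6.2e-11). FST, the secreted activin antagonist follistatin, had 9.55, 9.47, 9.33 and 9.38 with PD98059 and 10.62, 10.47, 10.51 and 10.55 with DMSO, 2.15-fold lower (adjusted p 1.78e-10). None of the 3 genes had overlapping groups. Chosen after their values were seen, TNS4, an adaptor at focal adhesions, was 1.88-fold lower, the TGF-beta co-receptor TGFBR3 1.74-fold lower and the vasoconstrictor peptide gene EDN1 1.69-fold lower. JAG1, a ligand of the NOTCH receptors, was 1.64-fold lower and HEY1, a transcriptional repressor induced by NOTCH, 1.55-fold lower, with adjusted p in limma of 1.85e-10 and 5.06e-08.

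Nucleolar genes of ribosome production were lower by small amounts. Of 40 measured nucleolar ribosome biogenesis genes, 31 were lower, 0 higher and 9 not called, with a median of -0.20 on the log2 scale. Over all genes 6.74% were lower. NOP16, a nucleolar protein of large subunit assembly, had 7.84, 7.86, 7.82 and 7.80 with PD98059 and 8.13, 8.08, 8.14 and 8.13 with DMSO (log2), 1.22-fold lower (adjusted p 7.16e-07). DDX21, a nucleolar RNA helicase, had 10.80, 10.72, 10.75 and 10.72 with PD98059 and 11.14, 11.13, 11.13 and 11.11 with DMSO, 1.30-fold lower (adjusted p 1.05e-06). Each gene's PD98059 arrays were all below its DMSO arrays. NOP2, an rRNA methyltransferase, and NIP7, which acts in rRNA processing, differed by -0.26 ± 0.024 and -0.32 ± 0.032. The 27 measured cytosolic ribosomal protein genes, the finished parts of the same particle, had 0 calls in limma, with a median of -0.02. Groups did not overlap for 5 of the 27, where they did not overlap for 21.8% of all genes. With array weights 3 were called lower.

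The promoter of NOP16 (chr5:176388599-176388848, minus strand, RefSeq, GRCh38.p14) is shown because the ETS motif CCGGAAG was common in this list. It holds the motif on both strands in overlapping copies at -19 to -13 and -16 to -10, in capitals.
NOP16 promoter: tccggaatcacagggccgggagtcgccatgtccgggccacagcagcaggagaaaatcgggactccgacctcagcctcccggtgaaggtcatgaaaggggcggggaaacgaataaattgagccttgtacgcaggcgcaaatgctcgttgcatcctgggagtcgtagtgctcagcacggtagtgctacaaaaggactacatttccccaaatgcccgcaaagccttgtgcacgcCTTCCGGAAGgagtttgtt
The ETS motif was found in 13 of 34 nucleolar promoters (38.2%) and in 11.4% of all 15247. Among promoters of genes called lower it was in 208 of 1151 (18.1%), and among those of genes called higher in 136 of 1371 (9.92%). It was in 0 of 19 promoters of the MEK and ERK output list and in 1 of 22 of the immediate-early genes. A match is a run of letters and not a measured binding site.

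Small nucleolar RNAs, which guide the modification of rRNA and are mostly cut from introns of other genes, had 27 of 173 C/D box members lower and 1 higher, and 8 of 64 H/ACA box members lower and 1 higher. These shares of 16.2% and 14.1% called lie near the 14.3% of all genes, and nearly all of the calls were decreases. Chosen after their values were seen, SNORD78 had 9.32, 9.42, 9.46 and 9.47 with PD98059 and 10.15, 10.05, 10.18 and 10.14 with DMSO (log2), 1.64-fold lower (adjusted p 5.84e-07). SNORA75 was 1.63-fold lower (adjusted p 2.42e-07). SNORD58C and SNORD42A had wide spreads within groups, with SDs of 0.15 and 0.16 on the PD98059 arrays and 0.14 and 0.19 on the DMSO arrays, and were 1.62-fold and 1.5-fold lower. SNORA38B stood against them, with 11.50, 11.32, 11.31 and 11.39 with PD98059 and 10.49, 10.46, 10.73 and 10.68 with DMSO, 1.73-fold higher (adjusted p 0.00012).

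Some translation factors and nucleotide synthesis enzymes fell. Of 21 translation initiation and elongation factors 8 were lower and 1 was higher, EIF4EBP2, a repressor of cap-dependent translation (0.17 ± 0.023). Of 20 nucleotide synthesis genes 8 were lower and 0 higher, where 6.74% of all genes were lower. The first count was 5 without DMSO replicate 1 or 4 or PD98059 replicate 3, and the second ranged down to 3 when PD98059 replicate 3 or 4 was left out. CTPS1, which makes CTP from UTP, had 8.90, 8.90, 8.85 and 8.92 with PD98059 and 9.24, 9.16, 9.24 and 9.23 with DMSO (log2), a difference of -0.32 ± 0.025 (adjusted p 2.28e-07). RRM2, a subunit of ribonucleotide reductase, had 10.73, 10.74, 10.73 and 10.74 with PD98059 and 10.98, 10.96, 10.96 and 10.97 with DMSO, 1.17-fold lower (adjusted p 2.08e-06). In both the DMSO arrays were all above the PD98059 arrays.

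Cell cycle genes showed no common direction after 8 h. Of 30 DNA replication and G1/S genes 5 were lower, 3 higher and 22 not called. Of 24 mitosis genes 3 were higher, 0 lower and 21 not called. The shares called were 26.7% and 12.5%, against 14.3% of all genes. Without replicate 3 of the PD98059 arrays in medium without histidine, which enters the fit through the common spread, the counts of higher genes were 8 and 6. CCNE2, cyclin E2, had 6.93, 6.78, 6.72 and 6.72 with PD98059 and 7.16, 7.21, 7.22 and 7.22 with DMSO (log2), 1.33-fold lower (adjusted p 0.000182). E2F3, a transcription factor of S phase entry, had 8.52, 8.45, 8.28 and 8.37 with PD98059 and 8.79, 8.71, 8.78 and 8.78 with DMSO, 1.29-fold lower (adjusted p 1.89e-05). Both were lower on every PD98059 array. NUSAP1, a spindle protein, rose by 0.21 ± 0.037.

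Genes of the endoplasmic reticulum fell in part, with 12 of 27 lower, 0 higher and a median of -0.08. Over all genes 6.74% were lower. XBP1, the transcription factor of the unfolded protein response, had 11.11, 11.07, 11.04 and 11.07 with PD98059 and 11.55, 11.53, 11.49 and 11.57 with DMSO (log2), 1.38-fold lower (adjusted p 9.62e-09), with no overlap of the groups. DNAJB9 and DNAJC3, co-chaperones of the reticulum, differed by -0.26 ± 0.036 and -0.31 ± 0.043. Genes of the ATF4 and amino acid response moved both ways, with 6 higher, 7 lower and 15 not called of 28. Of these genes 46.4% were called, against 14.3% of all genes. NUPR1, a stress-induced chromatin protein, had 9.65, 9.75, 9.76 and 9.72 with PD98059 and 9.14, 9.16, 9.10 and 9.16 with DMSO, 1.5-fold higher (adjusted p 9.94e-10). DDIT4, an inhibitor of mTORC1 signalling, rose by 0.43 ± 0.044, while GDF15, a stress-induced hormone, and SLC7A11, the cystine transporter, were lower, by -0.54 ± 0.039 and -0.42 ± 0.034.

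Among 18 NRF2 targets, genes of the antioxidant response, 7 were lower and 1 was higher (44.4% called, against 14.3% of all genes). AKR1B10, an aldo-keto reductase that is high in liver tumours, had 11.37, 11.32, 11.36 and 11.35 with PD98059 and 11.86, 11.84, 11.82 and 11.85 with DMSO (log2), 1.41-fold lower (adjusted p 1.36e-08). Its groups were tight and far apart. TXNRD1, thioredoxin reductase, and GCLM, the modifier subunit of the glutathione-making ligase, differed by -0.26 ± 0.023 and -0.37 ± 0.041. HMOX1, heme oxygenase, was the member that rose (0.25 ± 0.039, adjusted p 0.000221).

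In glucose handling HK2 and SLC2A1 fell, while the wider list split. Of 25 glycolysis and hypoxia genes 6 were lower, 5 higher and 14 not called (44.0% called, against 14.3% of all genes), with a median of -0.03. HK2, the hexokinase of tumours and muscle, had 9.11, 9.11, 8.98 and 9.03 with PD98059 and 10.12, 9.96, 10.10 and 10.09 with DMSO (log2), 2.02-fold lower (adjusted p 2.5e-10). SLC2A1, the glucose transporter GLUT1, had 12.05, 12.08, 12.06 and 12.04 with PD98059 and 12.70, 12.65, 12.67 and 12.69 with DMSO, 1.54-fold lower (adjusted p 2.42e-10). For both genes the 2 groups were distant. Of 20 gluconeogenic and FOXO target genes, 10 were higher and 4 lower, with a median of 0.09. Over all genes 7.59% were higher and 6.74% lower. IGFBP1, a liver-secreted binding protein of IGFs, was among the lower ones, against most called members of the list. IGFBP1 had 10.38, 10.37, 9.87 and 10.14 with PD98059 and 11.35, 10.97, 11.09 and 11.26 with DMSO, 1.97-fold lower (adjusted p 1.1e-05), with a wide spread in both groups and no overlap. FOXO1, an insulin-regulated transcription factor, also went against most called members and fell by 0.40 ± 0.027.

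Of 15 BCL2 family genes, which govern cell survival, 3 were lower and 1 higher (26.7% called, against 14.3% of all genes). BMF, a pro-apoptotic BH3-only protein, had 8.14, 8.20, 8.24 and 8.25 with PD98059 and 7.74, 7.71, 7.76 and 7.74 with DMSO (log2), 1.39-fold higher (adjusted p 6.08e-07). BCL2L1, which encodes the anti-apoptotic BCL-XL, had 9.28, 9.28, 9.21 and 9.23 with PD98059 and 9.60, 9.65, 9.59 and 9.56 with DMSO, 1.28-fold lower (adjusted p 8.87e-07). MCL1, another survival protein, fell by 0.28 ± 0.026. The arrays of all 3 genes separated by treatment.

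Several lists of liver genes had more members called higher than lower. Secreted coagulation and complement proteins had 17 of 33 genes higher, 0 lower and a median of 0.10, where 7.59% of all genes were higher. KNG1, which encodes kininogen, had 7.18, 7.13, 7.11 and 7.10 with PD98059 and 6.43, 6.34, 6.38 and 6.45 with DMSO (log2), 1.66-fold higher (adjusted p 2.04e-10). SERPINF2, the plasmin inhibitor alpha 2-antiplasmin, had 10.60, 10.74, 10.63 and 10.64 with PD98059 and 10.22, 10.13, 10.27 and 10.22 with DMSO, 1.36-fold higher (adjusted p 1.38e-06). For both genes all PD98059 arrays were above all DMSO arrays. SERPINC1, which encodes antithrombin, rose by 0.35 ± 0.033, and the 16 genes not called included F2, F9 and C3.

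Of 17 acute phase proteins 6 were higher and 0 lower, where 7.59% of all genes were higher. The 3 fibrinogen chains, which form 1 plasma protein, changed by much the same amount: FGA by 0.37 ± 0.030, FGB by 0.41 ± 0.036 and FGG by 0.41 ± 0.048 (SE), with adjusted p in limma between 3.54e-07 and 1.4e-05. HPX, the heme-binding plasma protein hemopexin, had 8.50, 8.66, 8.56 and 8.58 with PD98059 and 8.13, 8.07, 8.11 and 8.10 with DMSO (log2), 1.39-fold higher (adjusted p 3.74e-07). All 4 PD98059 arrays were above all 4 DMSO arrays. ALB, albumin, differed by 0.05 ± 0.035 (adjusted p 0.509) and AFP, the fetal plasma protein alpha-fetoprotein, by -0.0002 ± 0.038 (adjusted p 0.999). Both are among the brightest genes, both had overlapping arrays, and neither was called.

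Apolipoproteins and lipoprotein assembly genes had 6 higher, 2 lower and 10 not called of 18 (44.4% called, against 14.3% of all genes). APOC3, an inhibitor of lipoprotein lipase, had 8.36, 8.63, 8.48 and 8.52 with PD98059 and 8.04, 8.06, 8.03 and 7.95 with DMSO (log2), 1.39-fold higher (adjusted p 1.08e-05). MTTP, which loads lipid onto apolipoprotein B, had 8.13, 8.03, 7.89 and 7.98 with PD98059 and 7.64, 7.41, 7.50 and 7.47 with DMSO, 1.42-fold higher (adjusted p 0.000114). Spread within the groups was wider here than for most named genes, but neither gene's groups overlapped. APOA1, the main protein of HDL, rose by 0.33 ± 0.038. APOM, a carrier of sphingosine 1-phosphate, fell by 0.35 ± 0.051.

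**Figure D3:**
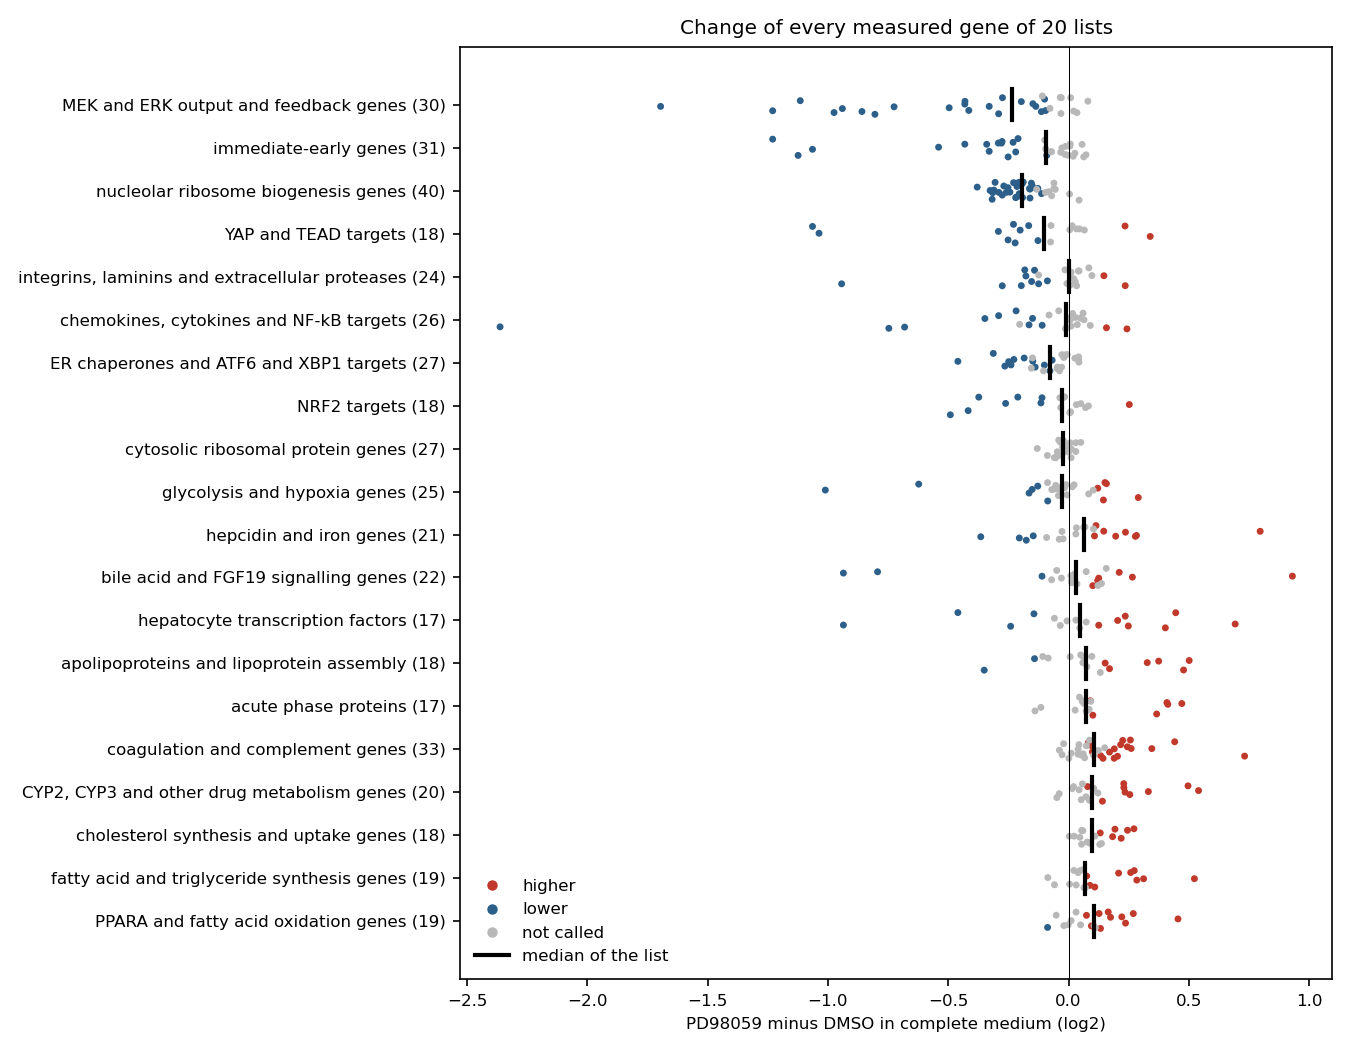
Each point is a gene of 1 of 20 lists (number measured in brackets), placed by its PD98059 minus DMSO difference in complete medium (log2), red where called higher, blue where called lower and grey where not called, with a black bar at the median of the list. Medians run from -0.24 for MEK and ERK output genes and -0.20 for nucleolar genes to 0.11 for PPARA and fatty acid oxidation genes.

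In bile acid signalling the strongest members went opposite ways, with 6 higher, 3 lower and 13 not called of 22. The share called was 40.9%, against 14.3% of all genes. KLB, beta-klotho, the co-receptor that lets FGFR4 bind FGF19, had 10.85, 10.84, 10.82 and 10.79 with PD98059 and 9.90, 9.87, 9.92 and 9.90 with DMSO (log2). Its 4 PD98059 arrays were closely grouped far above the DMSO arrays, and KLB was 1.91-fold higher (adjusted p 2.54e-09). NR0B2, the nuclear repressor SHP, had 9.10, 9.21, 9.10 and 9.17 with PD98059 and 10.12, 9.94, 10.16 and 10.11 with DMSO, 1.91-fold lower (adjusted p 9.34e-08). SLC51B, a subunit of the basolateral bile acid exporter, had 8.85, 8.92, 8.78 and 8.75 with PD98059 and 9.67, 9.59, 9.59 and 9.63 with DMSO, 1.73-fold lower (adjusted p 1.93e-10). The last 2 genes are both known targets of the bile acid receptor FXR and had no overlap between groups. CYP7A1, the rate-limiting enzyme of bile acid synthesis, was dim on all arrays and not called (0.12 ± 0.047, adjusted p 0.106), and FGF19 was not called (0.01 ± 0.048, adjusted p 0.942).

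HAMP, which encodes hepcidin, the liver hormone that blocks iron export, was among the 4 largest increases of the named genes. It had 11.57, 11.72, 11.67 and 11.61 with PD98059 and 10.84, 10.79, 10.90 and 10.87 with DMSO (log2). The groups were wide apart, and HAMP was 1.74-fold higher (adjusted p 5.94e-09). Of 21 hepcidin and iron genes 8 were higher and 4 lower (57.1% called, against 14.3% of all genes). ID1 and ID2, inhibitors of bHLH factors and, in the case of ID1, a common readout of the BMP signal that also drives HAMP, moved apart. ID1 had 11.73, 11.74, 11.72 and 11.72 with PD98059 and 12.16, 12.06, 12.06 and 12.09 with DMSO, 1.29-fold lower (adjusted p 8.87e-07), and ID2 rose by 0.28 ± 0.022.

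The HAMP promoter (chr19:35282278-35282527, plus strand, RefSeq, GRCh38.p14) is shown with a STAT motif, TTCNNNGAA, in capitals at -93 to -85, since interleukin 6 acts on HAMP through STAT3.
HAMP promoter: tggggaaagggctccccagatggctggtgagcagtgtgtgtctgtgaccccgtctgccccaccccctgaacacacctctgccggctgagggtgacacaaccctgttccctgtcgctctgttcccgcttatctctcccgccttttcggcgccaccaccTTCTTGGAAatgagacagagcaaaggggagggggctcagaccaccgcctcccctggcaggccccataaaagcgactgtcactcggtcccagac
This motif was found in 7 of 28 promoters of the coagulation and complement list (25.0%) and in 6.18% of all 15247. Among promoters of genes called higher it was in 5.91%.

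Liver transcription factors had 7 higher, 4 lower and 6 not called of 17, where 7.59% of all genes were higher and 6.74% lower. The lower ones included NR0B2 and XBP1, described above, with differences of -0.94 ± 0.068 and -0.46 ± 0.027 (SE). CREB3L3, a membrane-bound factor of liver and gut that drives triglyceride and acute phase genes, had 9.35, 9.29, 9.23 and 9.36 with PD98059 and 8.61, 8.62, 8.61 and 8.61 with DMSO (log2), 1.62-fold higher (adjusted p 7.33e-10). FOXA1, a pioneer factor of liver development, had 10.33, 10.30, 10.27 and 10.28 with PD98059 and 9.85, 9.85, 9.88 and 9.80 with DMSO, 1.36-fold higher (adjusted p 2.76e-08). The 4 DMSO arrays of CREB3L3 were nearly identical and far below the PD98059 arrays. Of 14 biliary and progenitor markers 4 were lower and 0 higher. KRT23, a type I keratin, changed by -0.55 ± 0.037, LGR5, a stem cell receptor of R-spondins, by -0.38 ± 0.036, and SOX4, a developmental transcription factor, by -0.32 ± 0.039. HNF4A was not analysed here.

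Other genes of the 12 largest increases by the naming rule belonged to none of the lists above. TMED6, a member of the p24 family of cargo receptors, had 8.97, 8.94, 8.83 and 8.86 with PD98059 and 8.00, 7.78, 7.81 and 7.94 with DMSO (log2) and was the gene above 2-fold on the higher side (2.02-fold, adjusted p 1.9e-08). INHBC, the liver-made activin C subunit, had 9.23, 9.28, 9.17 and 9.15 with PD98059 and 8.48, 8.32, 8.34 and 8.36 with DMSO, 1.78-fold higher (adjusted p 5.94e-10). DIO1, the deiodinase that activates thyroid hormone, had 9.47, 9.48, 9.39 and 9.46 with PD98059 and 8.72, 8.62, 8.67 and 8.66 with DMSO, 1.72-fold higher (adjusted p 2.04e-10). In these 3 genes each PD98059 array was above each DMSO array. SLC6A12, a betaine transporter, rose 1.62-fold, ANXA9, an annexin, 1.53-fold, IGSF23, an immunoglobulin superfamily member, 1.53-fold, PLA2G12B, a catalytically inactive phospholipase-like protein of lipoprotein secretion, 1.52-fold, and SERPINA4, the kallikrein inhibitor kallistatin, 1.51-fold.

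Lipid genes were higher in several lists and by small amounts. Of 19 fatty acid and triglyceride synthesis genes 9 were higher and 0 lower (median 0.07), and of 18 cholesterol synthesis and uptake genes 6 were higher and 0 lower (median 0.10). Of 19 PPARA and fatty acid oxidation genes 10 were higher and 1 lower (median 0.11). Over all genes 7.59% were higher and 6.74% lower. The cholesterol count was 12 without replicate 3 of the PD98059 arrays in medium without histidine, and the oxidation count was 6 without DMSO replicate 2 or 3 or with the arrays shifted to the same median. DGAT2, which completes triglyceride synthesis, had 10.85, 10.97, 10.90 and 10.92 with PD98059 and 10.36, 10.37, 10.43 and 10.39 with DMSO (log2), 1.44-fold higher (adjusted p 1.81e-08). EHHADH, the peroxisomal bifunctional enzyme, had 8.87, 8.80, 8.77 and 8.79 with PD98059 and 8.38, 8.24, 8.42 and 8.37 with DMSO, 1.37-fold higher (adjusted p 3.62e-06). Neither gene's groups overlapped. PNPLA3, a lipid droplet hydrolase, rose by 0.31 ± 0.029, and MVK and LSS, enzymes early and late in sterol synthesis, by 0.25 ± 0.033 and 0.22 ± 0.031.

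Drug metabolism genes had 9 of 20 higher, 0 lower and a median of 0.10, where 7.59% of all genes were higher. SULT2A1, a steroid and bile acid sulfotransferase, had 10.77, 10.74, 10.72 and 10.75 with PD98059 and 10.23, 10.17, 10.22 and 10.21 with DMSO (log2), 1.45-fold higher (adjusted p 1.5e-07). GSTA1, the main glutathione transferase of liver, had 9.75, 9.75, 9.70 and 9.73 with PD98059 and 9.26, 9.23, 9.22 and 9.23 with DMSO, 1.41-fold higher (adjusted p 6.41e-07). Both genes had tight, separate groups. CYP3A4, the main drug-oxidising P450 of adult liver, was called higher by 0.23 ± 0.027 at a level below the median of the table.

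PD98059 is also known to bind the aryl hydrocarbon receptor, so that pathway was read separately. Of its 11 measured genes 3 were higher, 2 lower and 6 not called, with a median of -0.00. The share called was 45.5%, against 14.3% of all genes. CYP1A1, its classical target, had 6.91, 6.76, 6.80 and 6.79 with PD98059 and 6.48, 6.49, 6.51 and 6.48 with DMSO (log2). The groups did not overlap, and CYP1A1 was higher by 0.32 ± 0.035 (adjusted p 6.92e-06). CYP1B1, another target, was dim and not called (-0.01 ± 0.034, adjusted p 0.871). The receptor gene AHR fell by 0.34 ± 0.043 and ARNT, its partner, rose by 0.25 ± 0.029.

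The effect of PD98059 was then set against its effect in medium without histidine, which comes from other arrays but shares the fit's estimate of spread. In that medium 5492 genes were called (24.4%), and the effect itself differed between media for 1289 genes (5.74%), of which 616 were called in complete medium. Among genes called in both media, 1254 were higher in both and 1085 lower in both, while 39 were higher in complete medium and lower without histidine and 20 the other way round. All 17 genes at least 1.5-fold higher in complete medium were also called higher without histidine. Of the 45 at least 1.5-fold lower, 43 were called lower without histidine too and the other 2, SNORD58C and SNORD42A, were not called. The difference between media was called for 34 of these 62 genes, 7 of those higher and 27 of those lower. One array without histidine, PD98059 replicate 3, deviated more from its group than any other (root mean square 0.111 log2 against 0.0496 to 0.0755 on the arrays of complete medium), and without it 3145 genes differed between media.

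**Figure D4:**
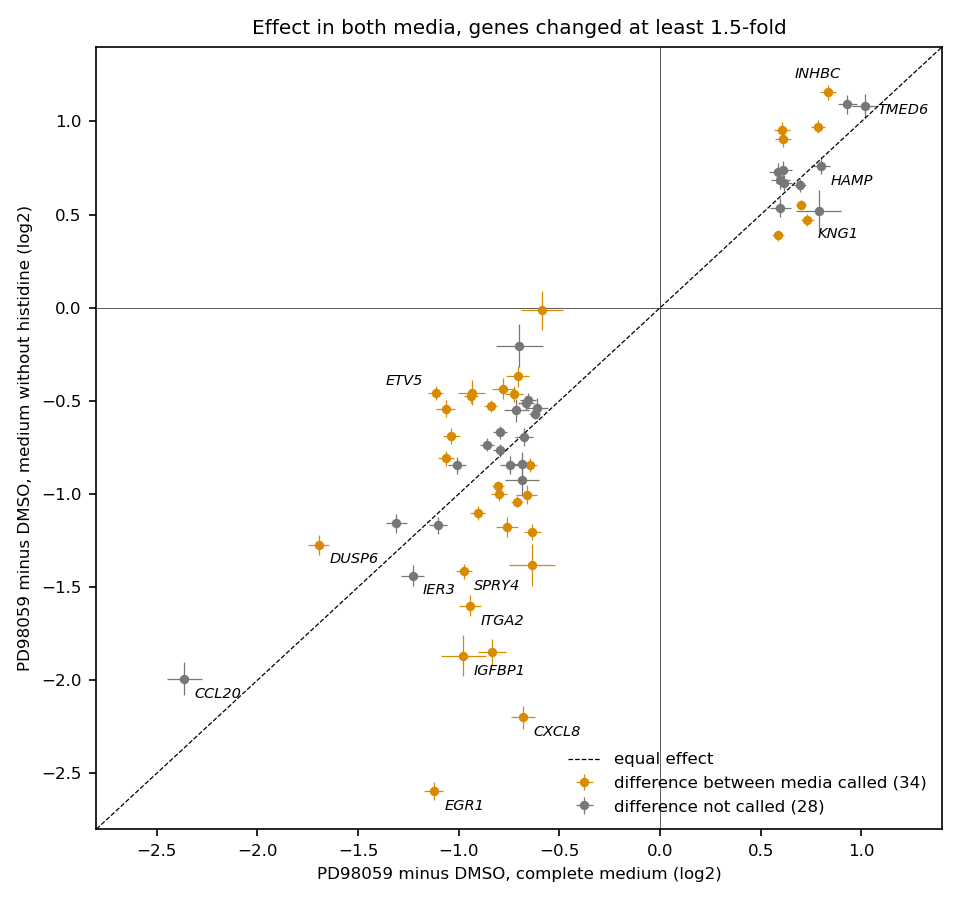
The 62 genes changed at least 1.5-fold in complete medium, by their PD98059 minus DMSO difference in complete medium (horizontal, log2) and in medium without histidine (vertical, log2), with bars of 1 SE and a dashed line of equal effect. Orange marks the 34 genes whose effect differed between media, and EGR1 and CXCL8 lie farthest below the line.

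Several feedback genes responded more in complete medium. ETV5 changed by -1.12 in complete medium and by -0.46 without histidine, a difference of -0.66 ± 0.050 (adjusted p 9.86e-07). ETV4 changed by -0.94 and -0.47 (adjusted p of the difference 3.6e-05), and DUSP6 by -1.70 and -1.27 (0.00286). NR0B2, CCN2 and ANKRD1 also fell by more in complete medium, with differences of -0.48 ± 0.096, -0.52 ± 0.067 and -0.35 ± 0.061. SPRY4 and DUSP5, of the same feedback list, fell by more without histidine, with differences of 0.44 ± 0.058 and 0.50 ± 0.063.

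Several immediate-early and cytokine genes responded less in complete medium than without histidine. EGR1 had 8.73, 8.93, 8.81 and 8.87 with PD98059 and 11.43, 11.48, 11.36 and 11.46 with DMSO in medium without histidine (log2), a change of -2.60, against -1.12 in complete medium (adjusted p of the difference 5.34e-09). CXCL8 had 6.62, 6.68, 6.52 and 6.52 with PD98059 and 8.96, 8.83, 8.77 and 8.59 with DMSO without histidine, a change of -2.20 against -0.68 in complete medium (3.21e-08). In both genes the arrays of either treatment were higher without histidine than in complete medium, the DMSO arrays by more. LIF, an interleukin 6 family cytokine, changed by -0.29 in complete medium and -1.51 without histidine, MCL1 by -0.28 and -1.05, and JUN by -0.21 and -0.93. FOS, not called in complete medium, fell by 0.55 without histidine (adjusted p of the difference 0.000137).

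A few genes rose in complete medium and fell without histidine. RND1, a small GTPase that loosens actin fibres, had 7.68, 7.73, 7.73 and 7.76 with PD98059 and 7.23, 7.18, 7.44 and 7.35 with DMSO in complete medium (log2), 1.34-fold higher (adjusted p 1.23e-05). Without histidine it had 7.86, 7.91, 8.01 and 7.94 with PD98059 and 8.82, 8.78, 8.72 and 8.82 with DMSO, a change of -0.86, and the effect differed by 1.28 ± 0.068 (adjusted p 1.56e-08). The groups were apart in both media, in opposite directions. SDC4, a heparan sulfate proteoglycan, PTPRH, a receptor tyrosine phosphatase, SESN2, a leucine-binding inhibitor of mTORC1, and CYP1A1 behaved likewise: their changes were 0.13, 0.19, 0.25 and 0.32 in complete medium and -0.55, -0.61, -0.42 and -0.17 without histidine. NFKBIA was 0.16 and -0.16. For each of these 6 genes both effects and their difference were called.

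Of the coagulation and complement genes, 16 of 33 were higher and 0 lower without histidine, 13 genes were higher in both media, and the difference was called for 1 of 33, KNG1. KLB changed by 0.93 ± 0.049 in complete medium and 1.09 without histidine (adjusted p of the difference 0.235), HAMP by 0.80 and 0.76 (0.85), and CREB3L3 by 0.69 and 0.66 (0.774). A p above the threshold does not show that the effects were equal, and the SEs of these differences were 0.069, 0.063 and 0.047. Nucleolar genes had 31 lower in complete medium and 32 without histidine, with medians of -0.20 and -0.21, and the difference was called for 2 of 40.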

How the data were processed

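Total RNA of HepG2 cells was measured on 16 Affymetrix arrays, 4 per group. The deposited log2 values were made by the authors with RMA in Partek 6.6, with hg19 listed as genome build, per the submitters' processing notes. RMA corrects background on each array and then fits quantiles and probes over all arrays together. Differences of dim genes come out narrowed. Of 70459 rows, 23780 carry 1 symbol in the platform annotation, 1543 carry several and 45136 carry none. For 479 symbols with several rows the row with the highest mean over the 16 arrays was kept, which gave 22464 genes. No filter on low values was used.

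Groups were taken from the sample titles. limma 3.58.1 in R 4.3.3 fitted 4 group means to all 16 arrays (lmFit, eBayes without trend, 12 residual degrees of freedom before moderation), and adjusted p-values are Benjamini-Hochberg over all genes. Genes with an adjusted p under 0.05 are called. The same fit gave the difference between media. Precision is limited by the 4 arrays per group. The code was tested on simulated data.

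The members and lists were chosen with earlier results of these data known. The named genes are the 12 highest and 12 lowest called genes above the median value of 6.22 with groups that do not overlap (leaving out uncharacterised loci and small RNAs), fixed MEK, ERK and liver genes, up to 4 members per list by adjusted p with members against the list's main direction, and the 8 genes that differed most between media. Others are marked in the text. Promoters are the 250 bases before RefSeq's gene start (GRCh38.p14), matched by symbol for 15247 genes and searched on both strands, and the microRNA was matched by name.

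Same-numbered PD98059 and DMSO arrays did not deviate together (correlations of 0.20, -0.22, -0.13 and -0.03), so replicate numbers were not used as pairs. Alternatives were a replicate block, only the 8 arrays, an intensity trend with robust variance, only genes above the median, a second round of quantile normalization, a shift of each array to a common median, averaging all rows of a symbol, testing unnamed rows too, array weights, a threshold of 0.01 or of 1.5-fold, and omitting 1 array at a time. Dates of scanning were not used here.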

Additional observations from a re-analysis of the deposited data

Results flagged for a closer look

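The effect of PD98059 differed between media for 65 of 146 named genes (limma, adjusted p under 0.05). Values are the log2 effect in complete medium minus that without histidine, so a positive value of a gene that fell means a smaller fall in complete medium. Among feedback and output genes the difference was -0.42 for DUSP6, 0.50 for DUSP5, 0.44 for SPRY4, -0.26 for SPRED1, -0.19 for SPRED2, -0.47 for ETV4, -0.66 for ETV5, 0.15 for EPHA2 and 0.45 for FOSL1. Among early response genes it was 1.47 for EGR1, -0.52 for CCN2, 0.54 for TRIB1, 0.47 for FOS, 0.72 for JUN, 0.78 for MCL1, 0.57 for KLF6, 0.42 for KLF5, 0.42 for PLK3 and 0.19 for the adaptor SHC1. Among cytokine genes it was 1.52 for CXCL8, 0.32 for NFKBIA and 1.21 for LIF. In genes of shape, matrix and NOTCH signalling it was -0.35 for ANKRD1, 0.25 for DLC1, 0.66 for ITGA2, -0.25 for CEMIP, 0.42 for EDN1, 0.33 for JAG1, 0.57 for HEY1, 0.20 for TNS4, 1.28 for RND1, 0.69 for SDC4 and 0.80 for PTPRH.

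In growth and stress genes the difference was -0.33 for CCNE2, -0.34 for SNORA75, -0.57 for SNORD42A, -0.21 for XBP1, 0.20 for NUPR1, 0.20 for GDF15, 0.19 for SLC7A11, 0.52 for DDIT4, 0.67 for SESN2, 0.27 for TXNRD1, 0.25 for GCLM, 0.21 for BMF and -0.28 for DDB2. In liver genes it was 0.89 for IGFBP1, -0.21 for FOXO1, 0.26 for KNG1, -0.48 for NR0B2, -0.18 for ID1, 0.36 for ID2, -0.18 for FOXA1, -0.32 for INHBC, -0.19 for DIO1, 0.14 for SLC6A12, -0.30 for IGSF23, -0.35 for PLA2G12B, -0.32 for PNPLA3, -0.51 for EHHADH, 0.49 for CYP1A1 and 0.32 for GOT1, and in progenitor markers 0.23 for KRT23, -0.37 for LGR5 and 0.43 for SOX4.

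In 9 of 292 gene and group combinations 1 array stood apart from the other 3 of its group by Dixon's criterion, which flags about 1 in 20 groups by chance. On the PD98059 arrays these were TXNRD1 in replicate 4 (9.45), FGB in replicate 1 (10.4) and CYCS in replicate 1 (8.90). On the DMSO arrays they were SPRY1 (9.32), CTPS1 (9.16), E2F3 (8.71) and GDF15 (12.28), all low in replicate 2, SDC4 in replicate 4 (11.29) and TNS4 in replicate 3 (8.82). Rows without a single gene symbol, which no comparison above uses, held 1508 calls of 46679 (3.23%), 653 higher and 855 lower with PD98059, 70 of them at 1.5-fold or more.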

How the results depend on the processing

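The count of 3218 genes changed in complete medium ranged from 2579 to 4285 when 1 of the 16 arrays was left out. It was 3504 with the replicate block, 2782 with the block on the 8 arrays alone (an alternative added after seeing the data), 5920 with array weights (3151 higher, 2769 lower) and 2018 at an adjusted p under 0.01 (1054 higher, 964 lower). Adding the fold threshold left 62 (17 and 45), and testing every row of the table gave 138 at 1.5-fold or more. No call of a named gene changed with the block except DUSP4, which passed. The difference between media was less stable. Its count of 1289 (635 and 654) was 1492 with the replicate block, 782 with arrays shifted to the same median (321 lower), 4615 with array weights (2252 and 2363), 592 at an adjusted p under 0.01 (340 and 252) and 45 at 1.5-fold or more (43 and 2). Without replicate 3 of the PD98059 arrays lacking histidine it was 3145 (1398 and 1747), and over all single arrays left out it ranged from 916 to 3145 (478 to 1398 positive, 401 to 1747 negative). The cause of these shifts was not tested. Of 3938 pairs of a named gene and an alternative, 3815 kept their direction and their side of the threshold, 98 lost the call, 8 gained it and 17 changed sign. Every loss came from adding the fold threshold, except those of FGFR4, and the gains were of DUSP4, MAPK3 and CYP7A1. The signs that turned belong to uncalled genes near 0: CCND1 (-0.00039 with the median shift), MAP2K2 (0.0038 with another quantile normalization, 0.0016 with array weights, -0.018 to 0.023 without single arrays), AFP (0.0038 with that normalization, -0.023 to 0.017 without single arrays), FGF19 (-0.015 to 0.040 without single arrays) and CYP1B1 (0.0079 with array weights, -0.038 to 0.0034 without single arrays). All 12 residual degrees of freedom come from 4 incubations per group of 1 line at 1 dose and 1 time, and differences of genes near background are bounded by array signal.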

Other observations

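Most groups not described above moved in both directions. Of 20 p53 target genes 7 were higher and 3 lower with PD98059 (50.0% called, against 14.3% of all genes). DDB2, a DNA damage recognition protein, averaged 10.58 ± 0.02 with PD98059 and 10.13 ± 0.04 with DMSO (log2, SD, n = 4) and rose by 0.45 ± 0.029 (limma adjusted p 2.02e-08), TP53INP1, an autophagy and stress protein, averaged 10.22 ± 0.04 with PD98059 and 9.85 ± 0.04 with DMSO (log2, SD, n = 4) and rose by 0.37 ± 0.032, and PLK3, a stress-responsive polo-like kinase, averaged 8.01 ± 0.02 with PD98059 and 8.40 ± 0.05 with DMSO (log2, SD, n = 4) and fell by 0.39 ± 0.031. Of 18 clock genes 4 were higher and 4 lower (44.4% called, against 14.3% of all genes). BHLHE40, CRY1 and PER2, which repress the clock's activators, changed by -0.48 ± 0.050, -0.42 ± 0.048 and -0.30 ± 0.030, and DBP, a target of those activators, rose by 0.25 ± 0.041, although only 1 clock gene was higher once arrays were shifted to the same median. The WNT list split evenly as well, with 4 higher and 4 lower of 18 (44.4% called). The antagonist DKK4 was lower (-0.44 ± 0.034) and the ammonium channel RHBG of pericentral hepatocytes higher (0.37 ± 0.046).

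Among 17 Kruppel-like factors 4 were lower and 3 higher, KLF5 and KLF10 by -0.38 ± 0.036 and -0.34 ± 0.032. Lists of housekeeping machinery had calls in both directions, except the proteasome list, where all calls were decreases. Over all genes 14.3% were called. Of 24 respiratory chain genes 1 was higher and 1 lower, CYCS, the electron carrier cytochrome c (-0.20 ± 0.039), of 26 proteasome genes 4 were lower and 0 higher (10 lower with array weights), including the lid subunit PSMD12 (-0.22 ± 0.046), and of 16 cytosolic heat shock proteins 2 were lower and 1 higher. Of 24 lysosome and autophagy genes 4 were higher and 3 lower, the largest fall being that of WIPI1, which acts in autophagosome formation (-0.46 ± 0.034). Of 21 urea cycle and amino acid breakdown enzymes 4 were higher, among them CPS1, the entry enzyme of the urea cycle (0.26 ± 0.041), and 1 was lower, the aspartate aminotransferase GOT1 (-0.36 ± 0.026, adjusted p 7.84e-08). Of 13 MYC, MAX and MXD network genes 4 were lower and 1 higher, and of 22 G1 cyclins, CDKs and CDK inhibitors 4 were lower and 1 higher.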
